A study of Macaca mulatta with 12 samples.

Results

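The MAP kinase phosphatases examined here were DUSP1, DUSP2, DUSP3, DUSP4, DUSP5, DUSP6, DUSP7, DUSP8 and DUSP10. These 9 genes, of 11963 gene symbols on the array, were represented by 17 of the 22215 probe sets other than controls. A probe set was taken when its only annotated gene symbol was exactly that of a member. DUSP5 and DUSP6 had been chosen by their measured intensities, which differed in opposite directions between magnocellular and parvocellular layers, and the other members were added as relatives. The magnocellular minus parvocellular differences of the members are therefore given as a description, with no p, and their count of calls supports nothing.

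The samples were RNA of individual layers of the LGN (lateral geniculate nucleus), the thalamic relay between retina and visual cortex, of monocularly deprived rhesus macaques (Macaca mulatta). Each of the 6 layers was sampled on both sides of the brain, which gave 6 deprived arrays (layers 2, 3 and 5 ipsilateral and layers 1, 4 and 6 contralateral) and 6 non-deprived arrays (the same layers of the other side). All arrays came from deprived animals, so no normally reared animal serves as a control, and non-deprived layers are those driven by the open eye of such an animal. Layers 1 and 2 were taken as magnocellular (4 arrays) and layers 3 to 6 as parvocellular (8 arrays). Ages, the method and length of deprivation, the number of animals and which arrays shared an animal are not given in the sources used here. Accordingly, p-values measure the spread between layers and hemispheres, which may be partly technical, and they are too small as statements about animals where arrays shared one.

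MAP kinase phosphatases are dual-specificity phosphatases that switch off MAP kinases by removing phosphate from both the threonine and the tyrosine of the activation loop. Several are themselves transcribed in response to MAP kinase signalling, calcium entry or growth factors, so that they form negative feedback loops. DUSP1, DUSP2, DUSP4 and DUSP5 are inducible nuclear enzymes, DUSP6 and DUSP7 are cytoplasmic and selective for ERK, DUSP8 and DUSP10 act mainly on JNK and p38, and DUSP3 is a small phosphatase without the kinase-binding domain of the others. These roles are known mainly from human and rodent cells.

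The measurement was a scaled intensity per probe set on a human expression array. Macaque RNA can hybridise more weakly to a human probe that it does not match, so levels of different genes are not compared. Exceptions across probe sets are the choice of the brightest one of a gene and the summed intensities of marker lists. Bright probe sets weigh most in those sums. The median intensity of an array ranged from 411.5 to 666.5. The array of the deprived layer 2 was the least like the others, with an average correlation to them of 0.868 (0.897 to 0.934 for the rest). The GAPDH 3'/5' ratio, a control of RNA integrity that is higher in degraded RNA, was 9.38 in the deprived layer 2 and 11 in the deprived layer 5, against 2.21 to 5.65 on the other 10 arrays. The thalamic relay markers SLC17A6 (24556 to 42638) and TCF7L2 (59388 to 79019) were far above the floor of 110.8 on every array, and so was GAD1 (18273 to 54374), a marker of inhibitory neurons. In bulk tissue, fewer cells of a type and less RNA per cell cannot be told apart.

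Of the 17 member probe sets, 9 from 7 genes passed the filter on low values (a mean log2 intensity no lower than that of the median probe set) and were tested among 11108. DUSP2, a phosphatase best known from immune cells, lay at or below the floor on all 12 arrays, at 19.9 to 109. DUSP4, an inducible nuclear phosphatase, exceeded the floor with 1 probe set (204014_at) in the deprived layer 2 (363) and the deprived layer 3 (167), and with the other (204015_s_at) in the non-deprived layers 1, 3 and 6 and the deprived layer 6 (118 to 216.5). The remaining untested probe sets were a second one each of DUSP1 and DUSP7, each above the floor only in the deprived layer 2, the dimmest of DUSP6 (208893_s_at), and both further ones of DUSP3. Those of DUSP3 ran from 113 to 597 (201537_s_at) and from 34.8 to 399 (201538_s_at), with no common order of the layers. None of these 8 dim probe sets passed for deprivation or hemisphere when the filter was left out (limma adjusted p of at least 0.707 for deprivation and 0.372 for hemisphere).

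DUSP5, an inducible nuclear phosphatase selective for ERK, was low in the magnocellular layers and higher in every parvocellular sample (probe set 209457_at). Its intensity was 234 in the deprived and 193 in the non-deprived layer 1, and 302 in the deprived and 406 in the non-deprived layer 2. In the 8 parvocellular samples the lowest value was 541, the median 817.5 and the highest 1414. The groups did not overlap, and the highest value belonged to the deprived layer 5, 1 of the arrays with a high GAPDH ratio. The mean was 283.5 ± 93.1 in magnocellular layers (SD, n = 4) and 865 ± 287 in parvocellular layers (SD, n = 8), a log2 difference of -1.60 ± 0.31 (standard error), which is 3.03-fold lower in magnocellular layers.

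DUSP6, the cytoplasmic ERK phosphatase that fibroblast growth factor and ERK signalling induce as a feedback inhibitor, had the opposite distribution. Its brightest probe set (208891_at) was at 7311 in the deprived and 6463 in the non-deprived layer 1, and at 5679 in the deprived and 9995 in the non-deprived layer 2. The parvocellular samples had a lowest value of 2163, a median of 3342 and a highest of 4948, so that these groups did not overlap either. The mean was 7362 ± 1878 in magnocellular layers (SD, n = 4) and 3242 ± 880 in parvocellular layers (SD, n = 8), with a log2 difference of 1.20 ± 0.22, or 2.29-fold.

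**Figure D1:**
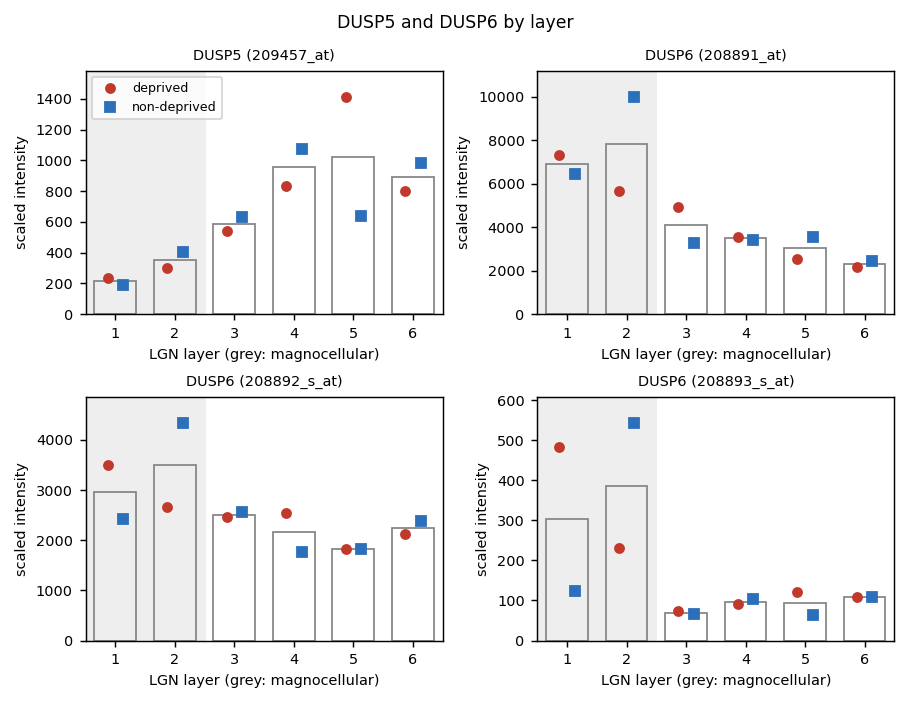
Scaled intensity (vertical axis, linear from 0) of the DUSP5 probe set and the 3 DUSP6 probe sets by LGN layer (horizontal axis, magnocellular layers on grey), with circles for the deprived and squares for the non-deprived sample and open bars for the mean of both. DUSP5 stays at or under 406 in layers 1 and 2 and at or above 541 in layers 3 to 6, while DUSP6 208891_at is at or above 5679 in layers 1 and 2 and at or under 4948 in layers 3 to 6.

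The other DUSP6 probe sets had the same direction, with smaller or dimmer signals. Probe set 208892_s_at had 3503 and 2658 in the deprived and 2422 and 4337 in the non-deprived magnocellular layers 1 and 2. Its parvocellular values had a lowest of 1766, a median of 2251 and a highest of 2556, so the groups overlapped through the non-deprived layer 1. The log2 difference was 0.54 ± 0.18, less than that of 208891_at. The dim probe set 208893_s_at read 483.5 and 230 in the deprived and 123 and 543 in the non-deprived magnocellular layers, against 62.9 to 122 in the parvocellular layers, where all but 1 sample lay at or below the floor. On the 8 parvocellular arrays alone, the 2 bright DUSP6 probe sets had a Pearson correlation of 0.228, so within that class they did not rank the samples alike.

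By the rule applied to all probe sets, 2 of the 9 tested member probe sets, those of DUSP5 and the brightest of DUSP6, were called for cell class, where 0.72% of all tested probe sets were. The samples did not overlap for the same 2, against 1.5% of all. The choice of both genes fixed these counts, so nothing is read from them, and no p is given. As a description, the log2 difference ranged from -1.88 to -1.36 for DUSP5 and from 1.04 to 1.43 for DUSP6 208891_at over 21 alternative settings.

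The same values, split by eye and by side, were as follows, and since they chose both genes they are no separate evidence. Among deprived samples DUSP5 averaged 268 in magnocellular (n = 2) and 898 in parvocellular layers (n = 4), and among non-deprived samples 299 and 832. For DUSP6 208891_at the means were 6495 in magnocellular and 3305 in parvocellular deprived samples, and 8229 and 3178 in non-deprived samples. By side of the brain, the log2 difference of DUSP5 was -1.98 ipsilaterally and -1.23 contralaterally, and that of DUSP6 208891_at was 0.92 and 1.47.

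Some measures of composition and RNA quality moved with cell class. Of the 8 measured oligodendrocyte markers, 2 were lower in magnocellular layers by limma, MAG (log2 difference -1.26, adjusted p = 0.018) and MBP (-0.64, adjusted p = 0.0334), and the summed intensity of the 8 was 60080 to 86400 in magnocellular and 84680 to 147900 in parvocellular samples. Other tested probe sets of MBP had -0.62 and -0.74 and did not pass (limma, adjusted p = 0.195 and 0.115). Dim ones not tested had -0.09 for MAG and 0.10 for MBP. MOG (0.06) and UGT8 (0.22) had positive differences, and none of the 8 lay at or below the floor on all arrays. Markers of other cells did not pass, with 0.97 ± 0.26 for the astrocyte gene SLC1A3 (adjusted p = 0.118), 0.80 ± 0.31 for ALDH1L1 (0.251), 0.61 ± 0.19 for GAD1 (0.168), -0.85 ± 0.23 for the relay marker RORA (0.118) and -1.03 ± 0.35 for the cortical marker NEUROD6 (0.195). Other genes of these lists had the opposite sign, with -0.115 for GFAP, -0.07 for SLC1A2, 0.33 for the relay marker SLC17A6 and 0.25 for the cortical marker TBR1. Positive differences were found for 4 of 6 tested astrocyte, 3 of 6 relay and 1 of 2 cortical markers. Summed intensities were 72970 to 119000 in magnocellular and 46810 to 115500 in parvocellular samples for 7 astrocyte markers, and 39670 to 63620 and 22320 to 49960 for 2 inhibitory markers. The ACTB 3'/5' ratio was 29.8 to 62.9 in magnocellular and 17 to 43.9 in parvocellular samples. With it as a covariate the differences were -1.75 ± 0.53 for DUSP5 and 1.43 ± 0.37 for DUSP6 208891_at. Their standard errors were 0.31 and 0.22 without it. The part of these markers in the DUSP5 and DUSP6 differences was not tested.

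Layer by layer, DUSP6 208891_at was highest in layer 2 (mean of the 2 samples 7837), followed by layer 1 (6887), layer 3 (4110), layer 4 (3489), layer 5 (3057) and layer 6 (2311). The samples of layers 2 and 1 overlapped, as did those of layers 3 and 4 and of layers 4 and 5, while layers 1 and 3 and layers 5 and 6 were apart. The other bright DUSP6 probe set, 208892_s_at, had a different order within the parvocellular class. Its layer means fell from layer 2 through layers 1, 3, 6 and 4 to layer 5. DUSP5 ran from layer 5 (1025) through layer 4 (955), layer 6 (893), layer 3 (587) and layer 2 (354) to layer 1 (213). The first place of layer 5 rested on the deprived sample (1414), since the non-deprived one had 636. Layers 5, 4 and 6 overlapped with their neighbours in this order, and layers 6, 3, 2 and 1 were apart from each other. Within the parvocellular class, DUSP6 208891_at was lower in layers 5 and 6 than in layers 3 and 4 by a log2 difference of -0.51 ± 0.23 (limma, unadjusted p = 0.0477, adjusted p = 1), and DUSP5 had 0.30 ± 0.30. Without the deprived layer 5 these differences were -0.47 ± 0.26 for DUSP6 208891_at and 0.11 ± 0.33 for DUSP5. DUSP6 208892_s_at had -0.19 ± 0.21 over the 8 arrays (limma, unadjusted p = 0.391). None of the 9 member probe sets passed for layer position, where the call rate over all probe sets was 0%. At an unadjusted p under 0.05 there was 1 of 9, against 2.86% of all. On these 8 arrays the Pearson correlation of DUSP5 with DUSP6 208891_at was -0.608 (Spearman -0.476), a description over arrays that may share animals.

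The probe sets whose log2 values followed DUSP5 most closely over the 12 arrays, among 9844 naming another single gene, were those of MYCN (r = 0.887), a transcription factor, HRH3 (0.872), a histamine receptor, FJX1 (0.857), GRIP2 (0.855), a glutamate receptor-binding protein, and RBM23 (0.842). Over the 8 parvocellular arrays alone these correlations were 0.307 to 0.71. For DUSP6 208891_at they were the probe sets of CDH6 (0.865), a cadherin, CDK2AP1 (0.858), TGFBR2 (0.849), a TGF-beta receptor, TPP2 (0.836), a peptidase, and SCPEP1 (0.833). The parvocellular values were 0.772 for CDK2AP1, 0.684 for TPP2, 0.471 for SCPEP1, 0.315 for CDH6 and 0.243 for TGFBR2. The 8 arrays are among the 12 by which these genes were ranked, so the parvocellular values are not independent of the ranking, and no p is given.

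**Figure D2:**
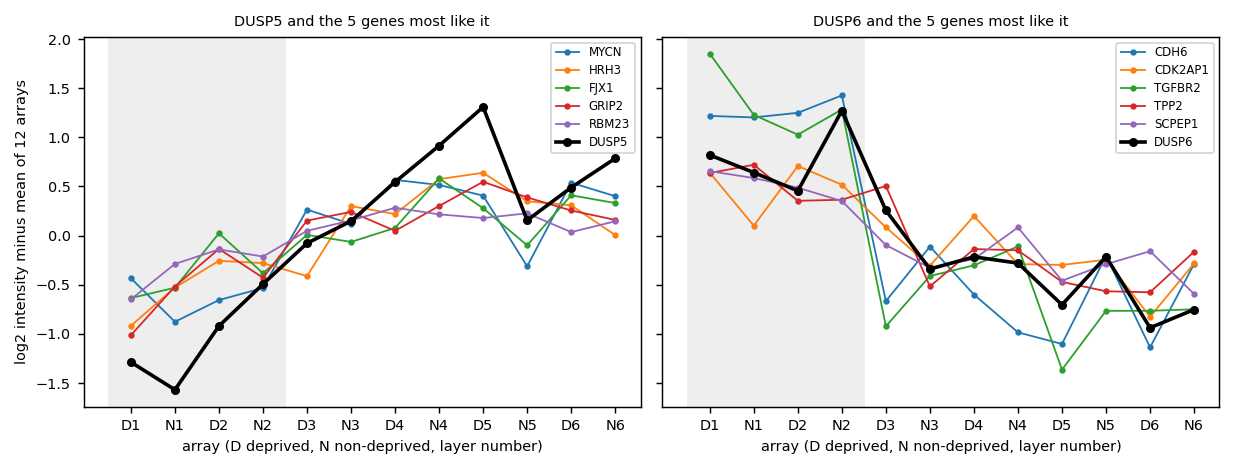
Log2 intensity minus the mean over the 12 arrays (vertical axis) on each array (horizontal axis, D deprived and N non-deprived with the layer number, magnocellular arrays on grey) for DUSP5 (left) and DUSP6 208891_at (right), drawn in black, with the 5 genes of highest Pearson correlation with each. DUSP5 lies lower and DUSP6 higher on the 4 magnocellular arrays, and the other genes mostly follow, with exceptions such as FJX1 on the deprived layer 2 (0.02), TPP2 on the deprived layer 3 (0.50) and CDK2AP1 on the deprived layer 4 (0.20).

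The other members differed less between the classes. DUSP3 (201536_at), which can dephosphorylate ERK and JNK, had values of 2187 and 3095 in the deprived and 2106 and 2844 in the non-deprived magnocellular layers 1 and 2, against a lowest of 1029.5, a median of 1968 and a highest of 2636 in parvocellular layers. The log2 difference of 0.40 ± 0.21 was 0.16 after removal of both arrays of highest GAPDH ratio and 0.09 with the ACTB ratio as a covariate. DUSP7 (213848_at), a cytoplasmic ERK phosphatase closely related to DUSP6, averaged 2689 ± 718 in magnocellular (n = 4) and 3334 ± 375 in parvocellular layers (n = 8), with a log2 difference of -0.34 ± 0.17, opposite in sign to that of DUSP6. DUSP8 (206374_at) had -0.23 ± 0.19 and DUSP1 (201041_s_at) -0.15 ± 0.16, and both groups overlapped. The DUSP10 probe sets had 0.18 ± 0.30 (215501_s_at) and 0.03 ± 0.24 (221563_at). Over the 9 tested probe sets the median was 0.03, against -0.07 over all tested.

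DUSP1, the prototype of the family and an immediate-early gene, was the steadiest member. Its layer means ran from 2931 in layer 2 to 4141 in layer 4, and within a layer the deprived and non-deprived samples differed most in layer 1 (3395 deprived against 4310 non-deprived). Its coefficient of variation over the 12 arrays was 12.5%, and 1.67% of the tested probe sets had a lower one. DUSP5 (55.1%) and DUSP6 208891_at (51.1%) varied more than 97.6% and 96.1% of the tested probe sets, ranks that follow in part from choosing both genes for their difference between the classes. DUSP3, DUSP7, DUSP8, DUSP10 and DUSP6 208892_s_at lay between 18.4% and 32.6%, around the median of 27.8% over all tested.

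**Figure D3:**
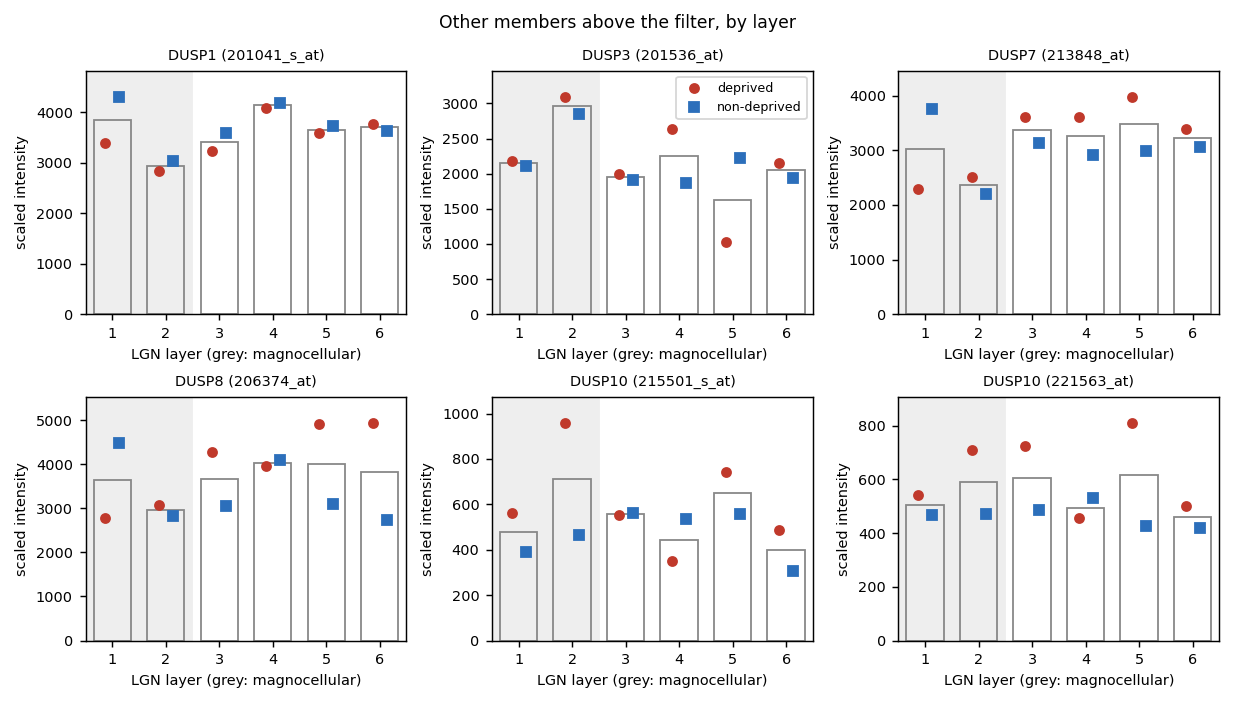
Scaled intensity (vertical axes, linear from 0) of DUSP1, DUSP3, DUSP7, DUSP8 and both tested DUSP10 probe sets by LGN layer (horizontal axes, magnocellular layers on grey), with circles for the deprived and squares for the non-deprived sample and open bars for the mean of both. DUSP10 221563_at is higher in the deprived sample of every layer but layer 4, and DUSP3 drops to 1029.5 in the deprived layer 5.

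The effect of deprivation, which the choice of members had not used, was examined next. None of the 9 tested member probe sets passed (limma, adjusted p from 0.531 to 0.985), where 0.063% of all tested probe sets did. None of the 9 reached an unadjusted p under 0.05, against 12% of all. Over the members the log2 differences ran from -0.11 to 0.39 with a median of 0.02, against 0.03 over all tested. Nor did the deprived and non-deprived samples separate without overlap for any member, against 0.684% of all tested probe sets.

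Among the nuclear phosphatases, DUSP1 had a lowest value of 2834, a median of 3491 and a highest of 4093 in deprived layers, against 3028, 3685 and 4310 in non-deprived layers. The deprived sample was lower in 5 of 6 layers, with log2 differences from -0.34 in layer 1 to -0.03 in layer 4. The fitted log2 difference was -0.10 with a 95% interval from -0.42 to 0.21 (limma, adjusted p = 0.838). Without the non-deprived layer 1 it was -0.02. DUSP5 had a difference of 0.02 with an interval from -0.59 to 0.63 (adjusted p = 0.985). Its deprived sample was lower in layers 2, 3, 4 and 6 and higher in layers 1 and 5, with 1414 deprived against 636 non-deprived in layer 5, and without the deprived layer 5 the difference was -0.14.

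Among the cytoplasmic ERK phosphatases, DUSP6 had differences of -0.11 (208891_at, 95% interval -0.55 to 0.33) and 0.02 (208892_s_at, -0.34 to 0.39), each with 3 layers higher and 3 lower. The largest gap was in layer 2, with 5679 in the deprived sample, the array that stood apart, against 9995 in the non-deprived one. DUSP7 had a higher deprived value in every layer but layer 1 (2298 deprived against 3749 non-deprived), with a log2 difference of 0.09 (interval -0.25 to 0.44, adjusted p = 0.864) that was -0.04 after median centring of the arrays. In parvocellular layers alone its 4 deprived samples (3388 to 3978) all lay above the 4 non-deprived ones (2910 to 3125), which held for 1 of the 9 member probe sets and for 2.02% of all tested probe sets (3.24% in either direction). The fit in those layers gave 0.27 and did not pass (limma, adjusted p = 0.788).

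Among the JNK and p38 phosphatases, both DUSP10 probe sets had positive differences. Probe set 221563_at had a lowest value of 457, a median of 624 and a highest of 809 in deprived layers, against 418, 469 and 529 in non-deprived layers, and was higher in the deprived sample of 5 of 6 layers. The groups overlapped, the log2 difference was 0.39 with an interval from -0.09 to 0.88, and it did not pass (limma, adjusted p = 0.531). Probe set 215501_s_at had 0.34 (interval -0.27 to 0.94, adjusted p = 0.69), which was 0.02 after removal of both arrays of highest GAPDH ratio. There 221563_at had 0.29.

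DUSP8, a phosphatase of JNK and p38 known from the brain, had deprived values of 4275, 3971, 4909 and 4936 in layers 3, 4, 5 and 6, against 3048, 4105, 3098 and 2735 in the non-deprived samples. In the magnocellular layers 1 and 2 the values were 2791 and 3074 deprived against 4478 and 2834 non-deprived. The deprived sample was thus higher in 3 of 4 parvocellular layers and in 1 of 2 magnocellular layers. Over all layers the difference was 0.23 (interval -0.15 to 0.61, adjusted p = 0.662), and in parvocellular layers alone it was 0.49 (limma, adjusted p = 0.678).

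DUSP3 had a higher deprived value in 5 of 6 layers, by 0.05 to 0.49 on the log2 scale, and lower by 1.11 in layer 5, where the deprived sample had 1029.5 against 2223. The fitted difference was -0.04 (interval -0.47 to 0.39) and 0.13 without the deprived layer 5, and neither passed (limma, adjusted p = 0.963 and 0.799).

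**Figure D4:**
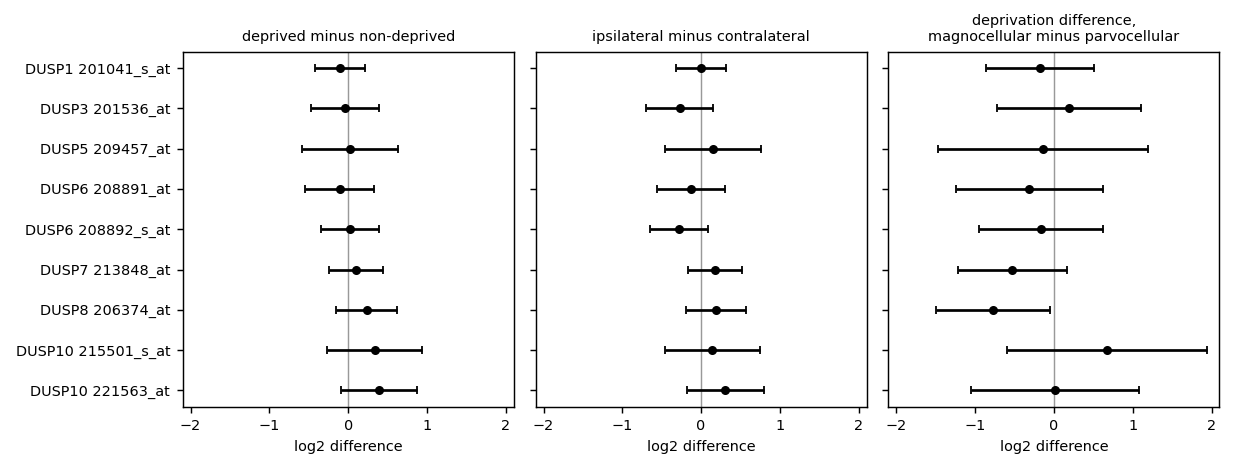
Log2 differences (horizontal axes) with 95% intervals (bars) of the 9 tested member probe sets (vertical axis) for deprived minus non-deprived layers (left), ipsilateral minus contralateral LGN (middle) and the deprivation difference in magnocellular minus that in parvocellular layers (right), from limma fits over 12 arrays. The intervals include 0 in the left and middle panels for all 9, and in the right panel for all but DUSP8.

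The deprivation difference was then compared between the cell classes. For DUSP8 it was lower in magnocellular than in parvocellular layers by a log2 difference of -0.77 ± 0.34 (95% interval -1.49 to -0.05, unadjusted p = 0.0372), which did not pass over all probe sets (limma, adjusted p = 0.545). DUSP7 had -0.53 ± 0.32 (adjusted p = 0.663) and DUSP10 215501_s_at 0.67 ± 0.60 (adjusted p = 0.764). Single magnocellular arrays moved these values. Without the non-deprived layer 1 they were -0.49 for DUSP8 and -0.17 for DUSP7, and without the non-deprived layer 2 they were -1.05 and -0.88. For DUSP5 the difference was -0.14 with an interval from -1.47 to 1.19, and for DUSP6 208891_at -0.32 with an interval from -1.25 to 0.62. None of the 9 passed, and the call rate over all tested probe sets was also 0%. At an unadjusted p under 0.05 there was 1 of 9, against 8.73% of all. With 2 magnocellular layers, these intervals are wide.

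The side of the brain and the eye of input gave no call among the members. Ipsilateral minus contralateral differences ran from -0.28 for DUSP6 208892_s_at to 0.31 for DUSP10 221563_at, and after median centring all 9 were negative, from -0.59 to -0.01 for the same probe sets. None of the 9 passed (limma, adjusted p from 0.371 to 0.993; 0 of 9 at an unadjusted p under 0.05, against 20.1% of all), with a call rate of 0.108% over all probe sets. No member separated the sides without overlap, against 1.29% of all. DUSP10 221563_at averaged 609 ± 159 on the ipsilateral and 479.7 ± 39.3 on the contralateral side (SD, n = 6 each), and DUSP5 had a difference of 0.15 with an interval from -0.46 to 0.76. For the eye of input, ipsilateral-eye layers (2, 3 and 5) minus contralateral-eye layers (1, 4 and 6), the largest value was that of DUSP10 215501_s_at. It averaged 639 ± 181 in ipsilateral-eye and 439 ± 105 in contralateral-eye layers (SD, n = 6 each), a log2 difference of 0.53 ± 0.26 (limma, adjusted p = 0.774). Both arrays of highest GAPDH ratio were of ipsilateral-eye layers, and without them this difference was 0.34 ± 0.33 (limma, adjusted p = 0.993). DUSP1 averaged 3334 ± 358 in ipsilateral-eye and 3900 ± 355 in contralateral-eye layers, a difference of -0.23 ± 0.14 (adjusted p = 0.836), and the groups overlapped for both genes. None of the 9 passed for the eye of input (0 at an unadjusted p under 0.05, against 6.59% of all), where the call rate over all probe sets was 0%. This contrast equals the difference in deprivation effect between hemispheres and cannot be told apart from it.

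The rest of the MAP kinase pathway was examined through 6 lists of 118 genes, of which 71 were tested. The lists were chosen with earlier results of these data known, so calls of their genes and shares of calls are no independent support. By cell class 3 of the 71 (4.23%) passed, against 0.72% of all tested probe sets, and 14 (19.7%) had an unadjusted p under 0.05, against 14.6% of all. MAP2K6, a kinase that activates p38, was 1 of 23 tested activators and rose in magnocellular layers, at 3595 ± 769.5 (n = 4) against 1791 ± 448 in parvocellular layers (n = 8, log2 difference 1.02 ± 0.18, limma adjusted p = 0.015). ETV1, an ETS transcription factor that depends on growth factor signalling, was 1 of 10 tested ERK output and feedback genes and rose on its probe set 221911_at, at 2893 ± 736 against 1064 ± 506 (1.54 ± 0.28, adjusted p = 0.015). EGR1, a zinc-finger transcription factor induced by ERK signalling, was 1 of 18 tested activity-regulated genes and fell in magnocellular layers, at 1493 ± 347.5 against 3301 ± 676 (-1.15 ± 0.20, adjusted p = 0.015). Other tested probe sets of ETV1 had 0.05, -0.26 and 0.07 and did not pass, and dim ones not tested had 0.76 for ETV1, -0.38 for MAP2K6 and -0.31 for EGR1. Each gene was tested by its probe set of highest mean, and for ETV1 the magnocellular arrays decided that choice, since another probe set (206501_x_at, 1376 in magnocellular and 1323 in parvocellular layers) was the higher one in parvocellular layers. The ETV1 call is therefore given for 221911_at alone.

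The calls depended on the setting more than the differences did. With limma, 0 of the 3 passed without the filter, with the ACTB ratio as a covariate, without the 2 arrays of highest GAPDH ratio, or when either the deprived layer 1 or the open-eye layer 2 was left out. MAP2K6 alone passed without the deprived layer 2, and 5 list genes passed without the non-deprived layer 6. EGR1 alone did not pass after median centring (-1.06, adjusted p = 0.104). Without the deprived layer 1 the differences were 1.02 for MAP2K6 (adjusted p = 0.085), 1.48 for ETV1 (0.104) and -1.23 for EGR1 (0.0605), and with the ACTB ratio they were 0.68, 1.59 and -1.12 (adjusted p of 0.796 to 1). The oligodendrocyte signal described above moved with the same comparison, and its part was not tested.

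The kinases that the phosphatases act on showed no call by class. Of 7 tested MAP kinase genes 0 passed (limma; 1 at an unadjusted p under 0.05), with a median difference of -0.05, and MAPK13, a p38 isoform, had -0.69 ± 0.27 (adjusted p = 0.262) and MAPK9, a JNK, 0.25 ± 0.18. Among activators MAP3K9 had 0.67 ± 0.21 (adjusted p = 0.15), and 23 tested genes had a median of 0.04. The 10 ERK output and feedback genes had a median of 0.21, with PHLDA1 at 0.45 ± 0.18 (adjusted p = 0.268). Of 7 other phosphatases of MAP kinases and 6 atypical dual-specificity phosphatases 0 passed (0 and 1 at an unadjusted p under 0.05), with medians of -0.05 and 0.19. PPM1A had 0.29 ± 0.19 and PPP2CB, a catalytic subunit of protein phosphatase 2A, 0.17 ± 0.15, while EPM2A, a glycogen phosphatase, had 0.63 ± 0.25 (adjusted p = 0.267) and DUSP12 0.48 ± 0.23 (adjusted p = 0.346). Activity-regulated genes had a median of -0.19, with 13 of 18 negative and FOSL2 at -1.45 ± 0.38 (adjusted p = 0.0996). The median over all tested probe sets was -0.07.

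**Figure D5:**
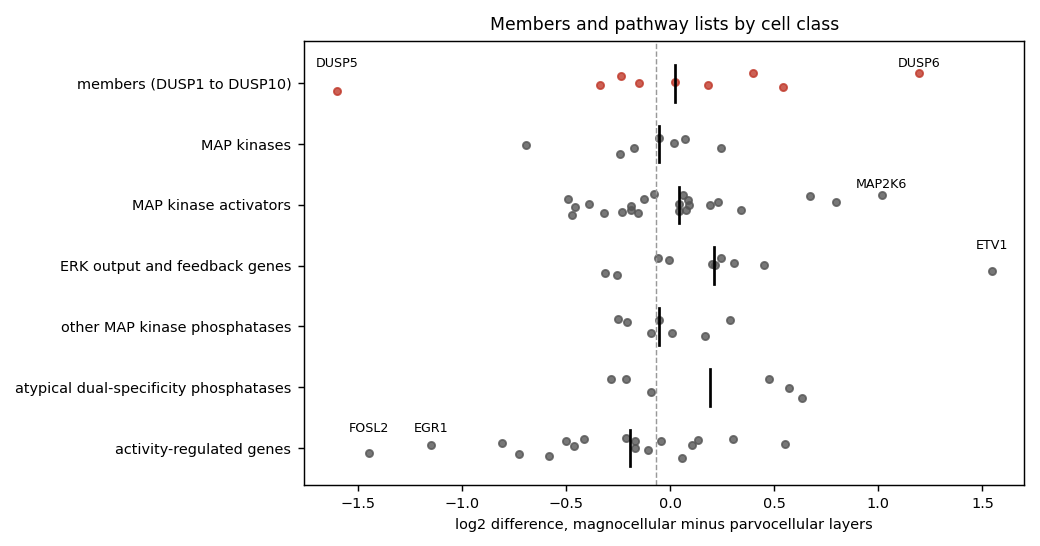
Log2 difference, magnocellular minus parvocellular layers (horizontal axis), of the 9 tested member probe sets and of each tested gene of the 6 pathway lists (rows), with a short black line at the median of each row and a dashed line at the median of all tested probe sets, -0.07. Names mark absolute differences over 1, which are DUSP5 at -1.60, DUSP6 at 1.20, MAP2K6, ETV1, FOSL2 and EGR1.

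With deprivation, 0 of the 71 list genes passed (limma), and 9 (12.7%) had an unadjusted p under 0.05, against 12% of all tested probe sets. The genes of smallest p were EGR3 (0.79 ± 0.22, adjusted p = 0.166), MAP2K6 (-0.44 ± 0.17, adjusted p = 0.33) and PPM1D (0.49 ± 0.19, adjusted p = 0.331), a phosphatase of p38. MAPK10, the neuronal JNK, had -0.33 ± 0.15 (adjusted p = 0.39), MAPK9 -0.25 ± 0.17, MAP2K2, which activates ERK, -0.54 ± 0.24, ETV1 (221911_at) -0.57 ± 0.26, PHLDA1 0.34 ± 0.17, PPM1B 0.35 ± 0.19, DUSP12 -0.49 ± 0.21, DUSP22 0.22 ± 0.26 and NPTX2 -0.56 ± 0.24, and none passed. The other tested probe sets of ETV1 had -0.06, 0.29 and -0.04 and did not pass either. All 8 measured oligodendrocyte markers had positive differences with deprivation (median 0.38, 0 passed, 3 at an unadjusted p under 0.05), with a summed intensity of 63070 to 147900 in deprived and 60080 to 104300 in non-deprived samples. All 6 tested astrocyte markers had positive differences too (median 0.47, 0 passed, 2 at an unadjusted p under 0.05), and the summed intensity of all 7 was 70480 to 119000 in deprived and 46810 to 85560 in non-deprived samples. The direction was the same for 4 of 4 tested microglia, 6 of 7 endothelial and mural, 2 of 2 inhibitory and 2 of 2 cortical markers. Of the 6 tested relay markers, 4 had negative differences (median -0.21). None of these markers passed. No member passed in this comparison, and the part of these markers in the member values was not tested.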

How the data were processed

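The data were 12 arrays, 1 per LGN layer and side. The deposited values were 1 scaled intensity per probe set and array on a linear scale, and how the authors computed them, including any detection calls, is not given in the sources used here. A 2% trimmed mean was 1500.45 to 1500.6 on every array, so the deposited table had been scaled between arrays and was used as it stood. Genes were named from the platform annotation, and all 9 members were also in the macaque gene tables. Values below a floor of 110.8, the 20th percentile over all arrays, were set to the floor, log2 was taken, and probe sets other than 68 controls with a mean log2 at or above the median were tested (11108). Linear models were fitted in limma 3.58.1 under R 4.3.3 (lmFit, then eBayes with an intensity trend), and two-sided p-values were adjusted by Benjamini and Hochberg's method over all tested probe sets and a threshold of 0.05. The fit over 12 arrays held deprivation, cell class and hemisphere. The interaction of deprivation with cell class and the eye of input were each added to it, and layer position was fitted in the 8 parvocellular arrays. Errors of log2 differences are standard errors. The fits were tested on simulated data. Alternatives were other scalings, floors and covariates, no filter, no trend, the layer block and leaving out arrays. The number of arrays limits the precision.

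The members and gene lists were chosen with earlier results of these data known. All member probe sets are named, and of each list the 2 genes of smallest p for deprivation and class and those past the threshold, with the probe set of highest mean per gene. Positions are not given, since no build was named. Layer numbers shared between deprived and non-deprived samples were checked as pairs: deviations from the group means correlated between -0.25 and -0.00186 within layers. The deprived and non-deprived samples of a layer always came from opposite sides of the brain. The check can therefore neither show nor exclude pairing by layer.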

Additional observations from a re-analysis of the deposited data

Results flagged for a closer look

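In groups of 4 to 8 samples, 4 values of members lay far from the rest of their group by Dixon's test, among 36 groups examined, where chance gives about 5% of groups, or 1.8. The groups share samples and the deprived and non-deprived ones mix both cell classes, so that figure is only a rough guide. DUSP3 201536_at was at 1029.5 in the deprived layer 5, against 1875 for the next parvocellular sample, a gap just past the critical ratio. That array also had the highest GAPDH 3'/5' ratio (11). In the non-deprived layer 2, DUSP3 was at 2844, against 2223 for the next non-deprived sample, and DUSP6 208892_s_at was at 4337, against 2556. Both values are from a magnocellular layer in a group of mostly parvocellular samples, and DUSP6 was chosen for its higher magnocellular intensity. DUSP3 was also high in the deprived layer 2 (3095). DUSP8 206374_at was at 4478 in the non-deprived layer 1, against 3074 for the next magnocellular sample. The causes were not tested.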

How the results depend on the processing

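For deprivation, hemisphere, deprivation by cell class, eye of input and layer position, 0 member probe sets passed in the fit as reported and in all alternatives run, which were 24, 23, 22, 23 and 17. With the layer number as a replicate block the count was 0 for deprivation, hemisphere and deprivation by cell class, and the block could not be fitted for the other comparisons, which are properties of a layer. For cell class the count of 2, which the choice of DUSP5 and DUSP6 fixed and which supports nothing, was 0 without the filter, 0 with the ACTB ratio as a covariate, 0 when both arrays of highest GAPDH ratio were left out, and 0 to 2 with 1 array left out (0 when it was the deprived layer 1). The class count of 3 pathway list genes, whose alternatives were chosen after seeing the data, was 0 in the same 3 settings, 2 after median centring (EGR1 lost) and 0 to 5 without single arrays. The list count with deprivation was 0 throughout. Of the member differences, 22 of 216 alternative values changed sign for deprivation (5 of 9 probe sets), 25 of 207 for hemisphere and 6 of 189 for cell class (the DUSP10 probe sets), none of them past the threshold. Median centring moved the median of all tested probe sets by -0.137 for deprivation and -0.318 for hemisphere. After it DUSP7 had -0.04 for deprivation and DUSP8 0.09, and all 9 member differences for hemisphere were negative, from -0.59 to -0.01. The causes of these changes were not tested.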

Other observations

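By side of the brain, 0 of the 71 pathway list genes passed (limma), and 9 had an unadjusted p under 0.05 (12.7%, against 20.1% of all tested probe sets). The genes of smallest p were EGR4 (ipsilateral minus contralateral 1.02 ± 0.26, adjusted p = 0.104), RASGRF1, a calcium-responsive activator of RAS (1.00 ± 0.28, adjusted p = 0.113), EGR3 (0.68 ± 0.22, adjusted p = 0.13) and MAPK13 (0.78 ± 0.26, adjusted p = 0.134). The catalytic subunit PPP2CA of protein phosphatase 2A had -0.34 ± 0.12 (adjusted p = 0.151). The median array intensity was 459.5 to 666.5 ipsilaterally and 411.5 to 529.1 contralaterally.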
